A study of Triticum aestivum with 24 samples.

Results

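The response of wild-type leaf sheaths to gibberellin (GA) was measured by comparing GA-treated with water-treated seedlings of Cadenza, a tall spring bread wheat. All genes with at least 0.5 TPM, a relative transcript abundance, in at least 4 of the 8 Cadenza libraries were members of the comparison, which gave 58434 of the 107891 gene models. The seedlings were 7 d old and received 100 µM GA3, a bioactive GA, or water. The sheath was harvested 8 h later, with the piece between the grain and the coleoptile tip taken, in 4 biological replicates per treatment. The study also sequenced the *idd5* mutant and the *Rht-D1b* line with both treatments, which gave 24 libraries in 6 groups. The *idd5* line carries induced mutations in the 3 homoeologues of *IDD5*, and *Rht-D1b* is a semi-dwarfing allele, both in the Cadenza background. The 16 mutant libraries entered the fit to estimate the spread between replicates, and their values are given beside some Cadenza genes. The sources used here do not say how many plants made up a replicate, so the p-values measure the spread between these harvested samples.

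GA promotes growth of the sheath by removing its own repressors. GA binds the receptor GID1, the complex captures DELLA proteins, and the captured DELLA is ubiquitinated and degraded. In wheat the DELLA is RHT1, encoded by *RHT-A1*, *RHT-B1* and *RHT-D1* on the A, B and D subgenomes, and the Green Revolution dwarfing alleles are forms of *RHT-B1* and *RHT-D1*. The IDD proteins are zinc finger transcription factors that DELLA binds, and IDD5 is the wheat member that the study mutated. Bread wheat is hexaploid, so most genes occur as homoeologous copies on the A, B and D subgenomes.

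TPM gives the abundance of a transcript per length, as a share of a library whose total is fixed. A rise in TPM is therefore a rise relative to the other transcripts, and read depth is unknown. In this tissue, fewer cells of a type and less RNA per cell cannot be told apart. Between 57398 and 58700 genes per Cadenza library reached 0.5 TPM. The table has no gene names. Names were available for *IDD5* and *RHT1* only, so 6 genes are described by name and function and all others by identifier, with no function given. The labelled tissue was not checked against marker genes for the same reason.

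Most members reached the filter level in every library. In exactly 4 libraries 0.5 TPM was reached by 1402 genes, which were members and had a median level of 0.534 TPM, while 1588 genes reached it in exactly 3 libraries and stayed outside with a median of 0.453 TPM. At least 0.5 TPM in all 8 libraries was found for 51765 of the members. Of the 49457 genes outside, 23917 were listed at 0 TPM in all 8 libraries. Of the members, 32 passed only through the GA-treated libraries and 38 only through the water-treated ones.

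At 8 h, few genes passed the test for a difference between GA3 and water. Of the 58434 genes tested, 62 (0.106%) were differentially expressed genes (DEGs), with 34 higher (0.0582%) and 28 lower (0.0479%) in GA-treated than in water-treated sheaths. DEGs were called with limma where p, after Benjamini-Hochberg adjustment over all genes tested, was under 0.01. The smallest adjusted p was 0.000105. At an adjusted p of 0.05 there were 244 DEGs (0.418%), and 5340 genes (9.14%) had an unadjusted p under 0.05. Median-ratio scaling of the libraries, which moved the median change of all genes by 0.0339 on the log2 scale, gave 56 higher and 25 lower genes, of which 55 were among the 62. The number of DEGs also depended on the libraries in the fit. Fitted on the 8 Cadenza libraries alone, limma called 11 genes at the same threshold, 7 of them among the 62. Leaving out each Cadenza library in turn gave 28 to 42 DEGs, with the lowest count without GA-treated replicate 4 and the highest without GA-treated replicate 2.

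Most DEGs that rose were abundant and changed little, while most of those that fell were less abundant and changed by more. The 34 higher genes had a median level of 70.5 TPM over the 8 libraries, and 29 of them had a mean of at least 20 TPM. Their changes had a median size of 0.49 on the log2 scale, or 1.40-fold, and 4 of them exceeded 2-fold. The 28 lower genes had a median level of 10.2 TPM, and 19 of them lay under 20 TPM. Their changes had a median size of 0.87, or 1.83-fold, and 11 of them exceeded 2-fold. Across all genes tested, the median level was 4.91 TPM and the median size of change 0.11. Together the higher genes gained 1203 TPM and the lower genes lost 259.9 TPM. The sizes of DEGs come from the contrast that selected them and are given as a description.

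**Figure D1:**
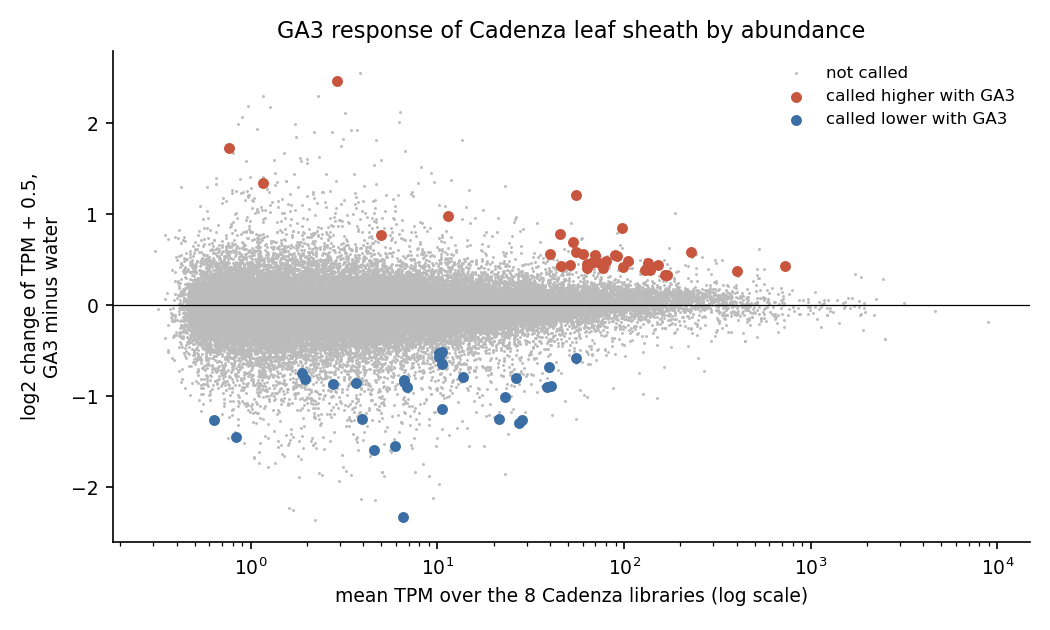
Each point is 1 of the 58434 genes tested, with its mean TPM over the 8 Cadenza libraries on a log scale (x axis) and its log2 change of TPM + 0.5, GA3 minus water (y axis). The 34 genes called higher (red) crowd at 20 TPM and over, close to the zero line, and the 28 called lower (blue) spread over lower levels with larger changes.

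All 3 *RHT1* homoeologues had higher transcript levels with GA3, and 1 of them, *RHT-D1*, was a DEG. *RHT-D1* (TraesCS4D02G040400) had 70.6, 61.5, 63.7 and 66.9 TPM in water-treated replicates 1 to 4 and 83.5, 83.0, 94.2 and 89.5 TPM in GA-treated replicates 1 to 4. Every GA-treated library was above every water-treated library. The mean rose from 65.7 ± 3.95 to 87.6 ± 5.28 TPM (SD, n = 4), a log2 change of 0.41 (standard error, SE, 0.0721, limma adjusted p = 0.00911). The call sits at the edge of the threshold. Across 20 alternative settings its log2 change stayed between 0.38 and 0.45, while its adjusted p from limma's test ranged from 0.00553 to 0.0466 and passed 0.01 in 6 of them. These 6 include the 0.05 threshold and the restriction to high-confidence gene models, which repeat the main fit. The call passed in 0 of the 8 fits that left out a Cadenza library, where the adjusted p lay between 0.0141 and 0.0442.

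*RHT-A1* (TraesCS4A02G271000) had 89.0, 80.8, 83.8 and 82.7 TPM with water and 101, 98.5, 113 and 109 TPM with GA3. Its groups did not overlap either. The means were 84.1 ± 3.51 and 105 ± 6.74 TPM (SD, n = 4), and the log2 difference was 0.32 (SE 0.0745), which did not pass the threshold (limma adjusted p = 0.0575). The 95% interval of that difference ran from 12.5% to 39.4%.

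*RHT-B1* (TraesCS4B02G043100) had 84.4, 78.3, 79.6 and 78.5 TPM with water and 97.0, 92.1, 103 and 99.8 TPM with GA3. Again no GA-treated library fell among the water-treated ones. The means were 80.2 ± 2.87 and 97.9 ± 4.48 TPM (SD, n = 4), with a log2 difference of 0.29 (SE 0.0757, limma adjusted p = 0.118) and a 95% interval from 9.34% to 35.9%. Non-overlapping groups in this direction occurred in 1382 of the genes tested, or 2.37%, and in the opposite direction in 2249, or 3.85%. Among genes of 20 to 100 TPM, where the *RHT1* copies lie, the shares were 5.77% and 4.66%, and after median-ratio scaling 9.88% and 3.17%. For each homoeologue the exact two-sided permutation test gave p = 0.0286, the smallest that 4 libraries against 4 allow.

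The *RHT1* homoeologues kept their order of abundance in each of the 8 libraries, with *RHT-A1* highest and *RHT-D1* lowest. Their summed level went from 229.9 ± 9.95 TPM with water to 290.9 ± 16.3 TPM with GA3 (SD, n = 4). The difference was 61.0 TPM, or 26.5%, and leaving out each library in turn moved it between 54.6 and 66.7 TPM. It reached p = 0.0286 in the exact two-sided permutation test, and 0.114 after Benjamini-Hochberg adjustment over the 8 sums and shares tested for *RHT1* and *IDD5*.

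The share of *RHT-D1* in that sum was higher in every GA-treated than in every water-treated library. It was 28.6% ± 0.688 (SD, n = 4) with water, from 27.9% to 29.3%, and 30.1% ± 0.344 (SD, n = 4) with GA3, from 29.6% to 30.4%. The difference was 1.54 percentage points (exact two-sided permutation test, p = 0.0286, adjusted p = 0.114). The share of *RHT-B1* was 34.9% with water and 33.7% with GA3, with overlapping groups (p = 0.0571 in the exact test, adjusted p = 0.152). The share of *RHT-A1* was 36.6% and 36.2% (p = 0.2 in the exact test, adjusted p = 0.32). None of the shares passed after adjustment.

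The *RHT1* copies were also read in the mutants. In *idd5* the log2 differences between GA3 and water of the A, B and D copies were 0.11, 0.19 and 0.01, with limma adjusted p-values of 0.843, 0.664 and 0.995. In *Rht-D1b* they were 0.11, 0.10 and 0.06, with limma adjusted p-values of 0.920, 0.928 and 0.963. All were positive and below those of Cadenza, and none passed the threshold. The difference in response from Cadenza did not pass for any copy either. It was -0.21, -0.10 and -0.40 for *idd5* (limma adjusted p = 0.885, 0.960 and 0.361) and -0.22, -0.18 and -0.36 for *Rht-D1b* (limma adjusted p = 0.835, 0.872 and 0.553), in the order A, B and D.

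**Figure D2:**
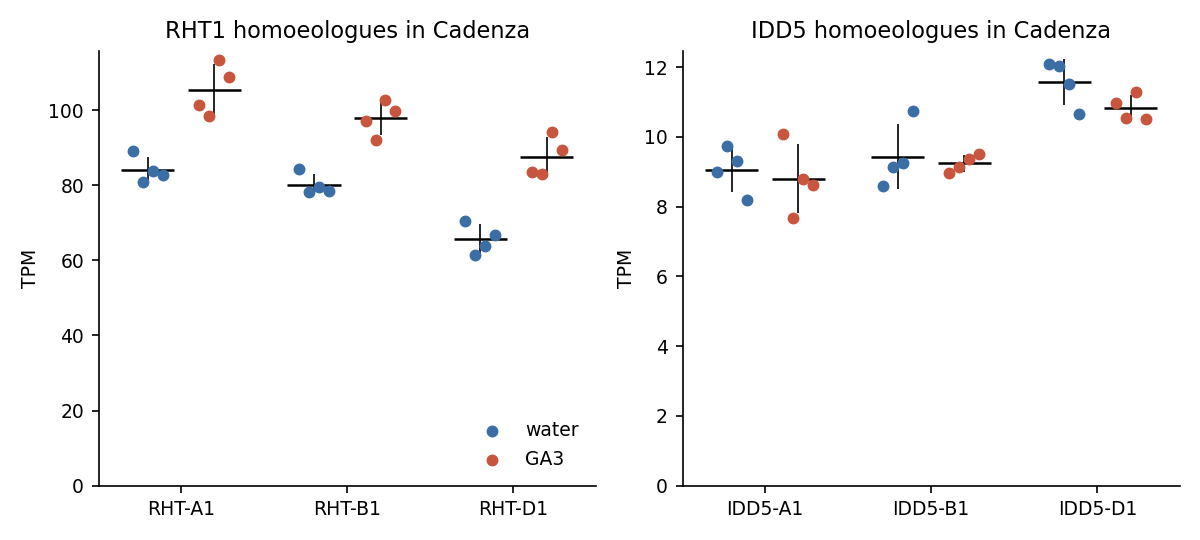
TPM (y axis, from 0) of the *RHT1* (left) and *IDD5* (right) homoeologues in the 4 water-treated (blue) and 4 GA-treated (red) Cadenza libraries, with 1 point per library, a bar at the mean and a line for the SD. The GA-treated libraries lie above the water-treated ones for each *RHT1* copy, from 92.1 against at most 84.4 TPM for *RHT-B1*, and the groups overlap for each *IDD5* copy.

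The *IDD5* homoeologues, which encode a partner of DELLA, were lower in abundance than *RHT1* and their groups overlapped. *IDD5-D1* (TraesCS2D02G199300) had 12.1, 12.0, 11.5 and 10.7 TPM with water and 11.0, 10.6, 11.3 and 10.5 TPM with GA3. The means were 11.6 ± 0.664 and 10.8 ± 0.372 TPM (SD, n = 4), a log2 difference of -0.09 (SE 0.0789, limma adjusted p = 0.802). The data leave room for a difference between -16.2% and 5.19% (95% interval).

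*IDD5-A1* (TraesCS2A02G188400) had 8.98, 9.74, 9.32 and 8.20 TPM with water and 10.1, 7.68, 8.80 and 8.63 TPM with GA3. GA-treated replicates 1 and 2 held the highest and lowest of the 8 values. The means were 9.06 ± 0.652 and 8.80 ± 0.987 TPM (SD, n = 4), with a log2 difference of -0.04 (SE 0.0811, limma adjusted p = 0.926) and an interval from -13.7% to 9.02%.

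*IDD5-B1* (TraesCS2B02G218900) had 8.58, 9.15, 9.25 and 10.8 TPM with water and 8.97, 9.13, 9.36 and 9.52 TPM with GA3. Water-treated replicate 4 was the highest value, and the GA-treated libraries lay close together. The log2 difference was -0.02 (SE 0.0718, limma adjusted p = 0.961), with an interval from -11.3% to 9.10%.

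*IDD5-D1* was the most abundant *IDD5* copy in 7 of the 8 libraries. The sum of the 3 copies was 30.1 ± 0.613 TPM with water and 28.9 ± 1.16 TPM with GA3 (SD, n = 4, exact two-sided permutation test, p = 0.114, adjusted p = 0.229). Their shares of that sum were 30.1%, 31.4% and 38.5% for the A, B and D copies with water and 30.4%, 32.1% and 37.5% with GA3. The exact tests of these shares gave p = 0.914, 0.771 and 0.543.

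Among the DEGs with a mean of at least 1 TPM, the pair with the largest rises had low levels. TraesCS1D02G173200 had 0.72, 0.15, 0.68 and 0.37 TPM with water and 5.43, 5.38, 1.87 and 8.53 TPM with GA3. Its GA-treated replicates differed among themselves, with replicate 3 well under the others but still above every water-treated library. The means were 0.48 ± 0.27 and 5.30 ± 2.72 TPM (SD, n = 4), an 11.0-fold ratio, and the log2 change of TPM + 0.5 was 2.46 (SE 0.345, limma adjusted p = 0.00123). Its means with water and GA3 were 0.415 and 0.80 TPM in *idd5* and 0.27 and 0.45 TPM in *Rht-D1b*.

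TraesCS1B02G225800 had 0.62, 0.57, 0.27 and 0.30 TPM with water and 2.0, 1.39, 2.25 and 1.87 TPM with GA3. The groups were well apart, and the means had a ratio of 4.27, from 0.44 to 1.88 TPM. Its log2 change was 1.35 (SE 0.183, limma adjusted p = 0.00103). With a pseudocount of 0.1 in place of 0.5 the adjusted p was 0.0361. Its means with water and GA3 were 0.22 and 0.475 TPM in *idd5* (log2 difference 0.43, limma adjusted p = 0.696) and 0.142 and 0.185 TPM in *Rht-D1b*.

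On the log2(TPM + 0.5) scale, and among DEGs of at least 1 TPM, the largest fall was that of TraesCS7B02G050800, with 7.97, 9.65, 10.8 and 16.1 TPM with water and 2.38, 0.74, 1.75 and 2.72 TPM with GA3. The lowest water-treated library was still well over the highest GA-treated one. The mean went from 11.1 ± 3.51 to 1.90 ± 0.87 TPM (SD, n = 4), which is 5.86-fold lower, with a log2 change of -2.32 (SE 0.281, limma adjusted p = 0.000351). In the mutants the means were 28.4 and 26.1 TPM in *idd5* and 30.2 and 26.2 TPM in *Rht-D1b* with water and GA3. The difference in response from Cadenza had an adjusted p of 0.12 for *idd5* and 0.249 for *Rht-D1b* in limma's test over all genes.

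The next largest fall on that scale, of TraesCS5D02G414300, was from 6.63, 6.79, 7.82 and 7.09 TPM to 2.35, 2.19, 2.6 and 1.2 TPM. The means differed 3.40-fold, with a log2 change of -1.59 (SE 0.264, limma adjusted p = 0.00626). This call was lost in 13 of 20 alternative settings, including all 8 that left out a Cadenza library (adjusted p from 0.0107 to 0.0312). Fitted on the 8 Cadenza libraries alone, these 4 genes had a limma adjusted p between 0.0146 and 0.0385 and none of them was called.

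Some DEGs were neighbours by identifier. The identifiers number the gene models along each chromosome, and 96.1% of the steps between consecutive ones are of 100. With a distance of at most 10 gene models, 9 of the 62 DEGs fell into 4 runs, and the members of each run moved in the same direction. One of these 9, on chromosome 2A, passed the filter only through the water-treated libraries, so the run it forms with 1 other gene rests on a gene that had to be lower with GA3. These runs and the genes named in the next paragraphs were chosen after their values were seen. Genes in a run may be near-identical copies among which reads are divided, which was not tested. The table holds 152 tested genes with values identical to another gene in all 24 libraries, and 0 of them were DEGs.

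On chromosome 5D the run held 3 DEGs, all lower with GA3. TraesCS5D02G414000 had 10.3, 9.92, 7.34 and 8.39 TPM with water and 3.39, 2.07, 4.54 and 1.66 TPM with GA3, a log2 change of -1.54. TraesCS5D02G414100 had 4.41, 7.43, 4.23 and 7.04 TPM with water and 2.01, 2.11, 2.03 and 2.15 TPM with GA3, a log2 change of -1.25. The third was TraesCS5D02G414300, described above. Between them, TraesCS5D02G414200 had a log2 difference of -1.39 that did not pass (limma adjusted p = 0.048). The genes on either side stood apart from the run, with differences of -0.02 for TraesCS5D02G413900 and -0.13 for TraesCS5D02G414400.

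On chromosome 6A a pair of neighbouring genes rose. TraesCS6A02G249200 had 36.1, 25.8, 32.9 and 38.6 TPM with water and 69.3, 73.5, 83.2 and 82.0 TPM with GA3, a log2 change of 1.21 (SE 0.184, limma adjusted p = 0.00312). TraesCS6A02G249300 had 72.3, 58.9, 71.9 and 77.2 TPM with water and 119, 120.1, 128 and 136 TPM with GA3, a log2 change of 0.84 (SE 0.137, limma adjusted p = 0.0051). In both genes water-treated replicate 2 was the lowest library, and the lowest GA-treated library lay far above the highest water-treated one. In the mutants their means were 25.0 to 28.1 TPM for TraesCS6A02G249200 and 58.4 to 66.2 TPM for TraesCS6A02G249300 over the 4 groups.

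The other runs held lower genes. On chromosome 7A, TraesCS7A02G426600 had 37.0, 46.2, 36.7 and 41.1 TPM with water and 19.8, 16.2, 16.7 and 13.8 TPM with GA3, a log2 change of -1.26. TraesCS7A02G426100 went from between 47.5 and 52.8 TPM to between 23.7 and 31.4 TPM, a log2 change of -0.90. The tested genes between them did not share the change, with log2 differences of -0.07 for TraesCS7A02G426200 and 0.11 for TraesCS7A02G426400. On chromosome 2A, TraesCS2A02G301400 had 1.26 to 1.65 TPM with water and 0.18 to 0.31 TPM with GA3, and its neighbour TraesCS2A02G301500 had 11.2 to 13.5 TPM and 7.91 to 9.83 TPM, log2 changes of -1.45 and -0.51. These genes were expressed in all 4 water-treated libraries, and the pair on chromosome 7A was among the more abundant of the lower DEGs.

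The smallest adjusted p-values belonged to genes of middle abundance that fell. TraesCS7D02G149200 had 39.1, 35.1, 36.7 and 43.8 TPM with water and 14.0, 12.2, 18.3 and 18.2 TPM with GA3, a log2 change of -1.29. TraesCS7B02G456500 had 26.0, 28.4, 29.2 and 37.6 TPM with water and 11.2, 12.4, 13.5 and 12.4 TPM with GA3, a log2 change of -1.25. Both had an adjusted p of 0.000105 in limma's test. In the mutants TraesCS7B02G456500 had log2 differences of -0.36 in *idd5* and -0.53 in *Rht-D1b* (limma adjusted p = 0.583 and 0.616). Of the 62 DEGs, 49 had a difference of the same sign in *idd5* and 53 in *Rht-D1b*, and these genes were selected on Cadenza. The share of same-sign differences among all tested genes was not counted, so these counts have no background to be read against.

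The most abundant DEGs rose by less than 2-fold. TraesCS2B02G546700 had 650.1, 627, 599 and 614 TPM with water and 880.4, 826, 835 and 820.0 TPM with GA3, a log2 change of 0.43 (SE 0.0753, limma adjusted p = 0.00891). TraesCS2B02G077700 had 343, 348, 363 and 343 TPM with water and 451, 430.2, 458 and 480.3 TPM with GA3, a log2 change of 0.38 (limma adjusted p = 0.00334). TraesCS3D02G244900 had 188, 196, 183 and 159 TPM with water and 261, 276, 271 and 285 TPM with GA3, a log2 change of 0.59 (limma adjusted p = 0.00103). No library of these genes crossed into the other group, although replicates of one treatment differed, as from 159 to 196 TPM for TraesCS3D02G244900 with water.

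**Figure D3:**
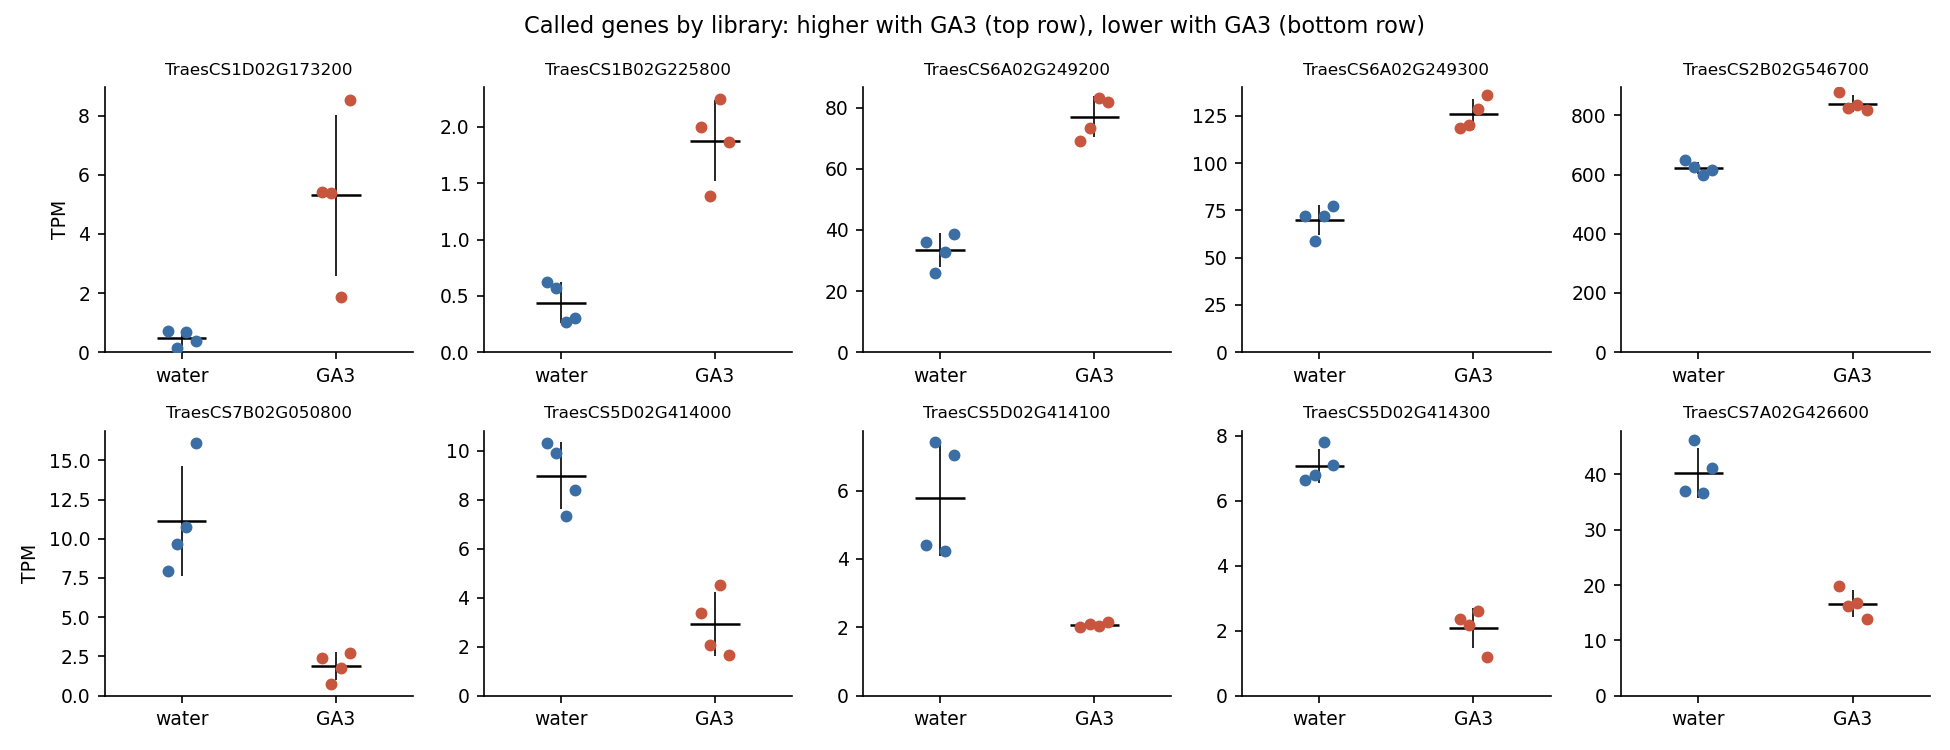
TPM (y axes, each from 0) of 10 DEGs in the water-treated (blue) and GA-treated (red) Cadenza libraries, with 1 point per library, a bar at the mean and a line for the SD over 4 libraries. The top row rose with GA3, from 0.48 to 5.30 TPM for TraesCS1D02G173200 and from 623 to 840.3 TPM for TraesCS2B02G546700, and the bottom row fell, with no overlap of the groups in any panel.

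A few genes were close to absent in Cadenza under one of the treatments. Of the 62 DEGs, 3 passed the filter only through one treatment. TraesCS1D02G213400 was listed at 0 in 3 water-treated libraries and at 0.37 TPM in the other, and had 1.43, 1.42, 0.91 and 1.97 TPM with GA3. Its log2 change of TPM + 0.5 was 1.72, with a mean below the 1 TPM that the rule for the largest changes asked for. TraesCS2A02G301400, described above, and TraesCS2B02G460000, with 0.82 to 1.37 TPM with water and 0.03 to 0.37 TPM with GA3, passed only through water. Their ratios of means, 6.70 and 6.38, exceeded that of TraesCS7B02G050800. A further 3 of the 58434 genes tested were listed at 0 in all water-treated libraries and had at least 0.5 TPM in all GA-treated ones. They were TraesCS2B02G232200, TraesCS5B02G248800 and TraesCS7A02G516200, with 0.62 to 4.59, 0.76 to 2.74 and 0.83 to 3.56 TPM with GA3. None of the 3 was a DEG (limma adjusted p = 0.0769, 0.289 and 0.0437), and 0 genes had the reverse pattern. In the mutants their levels also varied within a treatment or went the other way. TraesCS2B02G232200 had 0 to 4.17 TPM in *Rht-D1b* with water and 0 with GA3. TraesCS5B02G248800 had 0 to 6.4 TPM in *idd5* with GA3. TraesCS7A02G516200 had 0.57 to 3.41 TPM in *idd5* with water and 0 to 1.05 TPM with GA3.

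The direction of the response shifted with abundance. Genes were placed in 5 classes by their mean TPM over the 8 libraries. In the class of 100 TPM and over, 10 of 1700 genes were DEGs (0.588%), all of them higher with GA3. In the class of 20 to 100 TPM there were 19 higher and 9 lower DEGs among 7074 genes (0.396%). From 5 to 20 TPM the balance was the opposite, with 1 higher and 11 lower among 20134 genes (0.0596%). From 1 to 5 TPM there were 3 higher and 6 lower among 22670 (0.0397%), and under 1 TPM 1 higher and 2 lower among 6856 (0.0438%).

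Replicates of abundant genes varied less, so smaller changes could pass there. The median SD of log2(TPM + 0.5) within a treatment was 0.295 under 1 TPM, 0.228 from 1 to 5 TPM, 0.150 from 5 to 20 TPM, 0.114 from 20 to 100 TPM and 0.110 at 100 TPM and over. The smallest change of a DEG went with it, from 1.26 in the lowest class to 0.74, 0.51, 0.41 and 0.33 in the others. No DEG below 20 TPM had a change under 0.5 on the log2 scale.

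The shift was also present over all tested genes of a class, DEGs included. At 100 TPM and over, 66.4% of the genes had a higher mean log2 level with GA3, and the median log2 difference was 0.05. From 1 to 5 TPM 60.1% of the genes were lower, with a median of -0.05. Groups that did not overlap were counted in the same way. At 100 TPM and over, 195 genes (11.5%) had all GA-treated above all water-treated libraries and 33 (1.94%) had them below, while from 1 to 5 TPM the counts were 288 (1.27%) and 827 (3.65%). From 20 to 100 TPM they were 408 (5.77%) and 330 (4.66%).

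The lower classes depended on the scaling. After median-ratio scaling, an alternative added after the data were seen, from 5 to 20 TPM 723 genes (3.59%) lay above and 668 (3.32%) below, against 396 (1.97%) and 873 (4.34%) as deposited. From 20 to 100 TPM the counts became 699 (9.88%) and 224 (3.17%), and at 100 TPM and over 280 (16.5%) and 23 (1.35%). From 1 to 5 TPM lower genes remained the more frequent, with 467 (2.06%) above and 704 (3.11%) below. The share of genes with all GA-treated above all water-treated libraries therefore rose from class to class, from 1 TPM upwards, under both scalings. The balance from 5 to 20 TPM did not hold. By mean log2 level as deposited, 39.9% of the genes were higher from 1 to 5 TPM and 39.4% from 5 to 20 TPM.

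**Figure D4:**
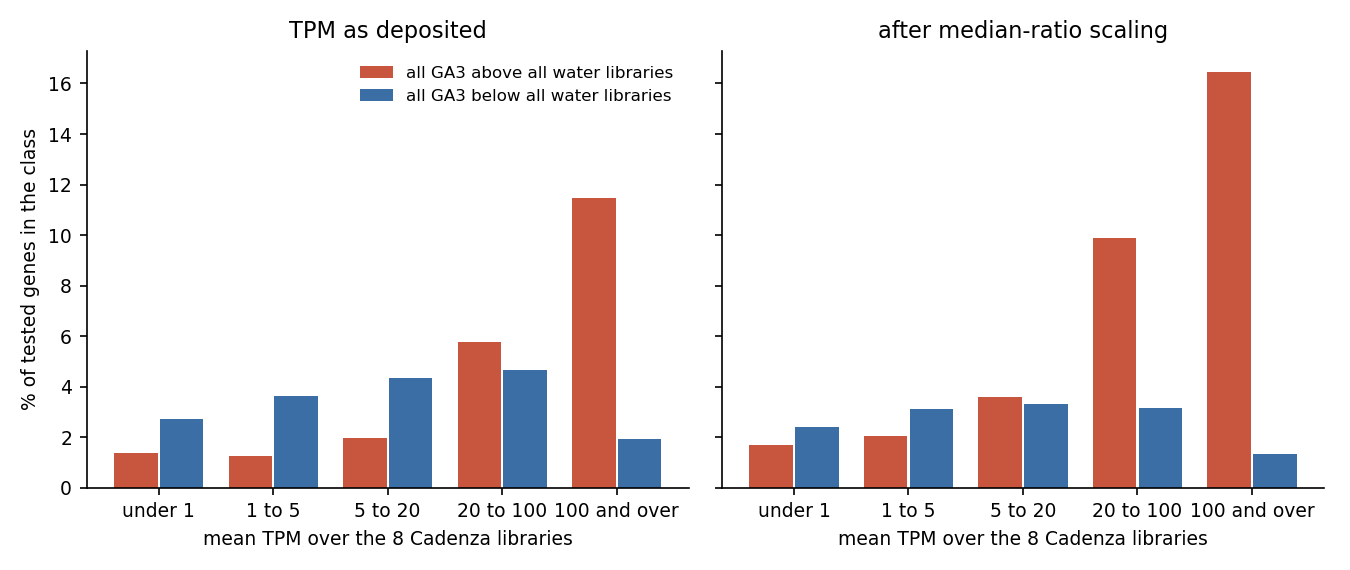
Share of tested genes in each abundance class (x axis, mean TPM over the 8 Cadenza libraries) whose GA-treated libraries were all above (red) or all below (blue) the water-treated ones, in percent of the class, as deposited (left) and after median-ratio scaling (right). The share above reaches 11.5% and 16.5% at 100 TPM and over, and the share below is 1.94% and 1.35% there.

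None of the class shares of a whole library passed the exact test, which did not use the replicate numbers. Genes of 100 TPM and over held 44.9%, 44.9%, 43.0% and 43.4% of all TPM in water-treated replicates 1 to 4 and 45.6%, 45.5%, 43.6% and 44.5% in GA-treated replicates 1 to 4. In both treatments replicates 1 and 2 were above replicates 3 and 4, and the groups overlapped. Within each replicate number the GA-treated library was higher, by 0.658 to 1.06 percentage points, as noticed afterwards and not tested. The mean difference was 0.770 percentage points (exact two-sided permutation test, p = 0.286, adjusted p = 0.524 over 11 shares and totals). The smallest p of the 11 was that of the D subgenome, 32.4% with water and 32.5% with GA3 (p = 0.0571 in the exact test, adjusted p = 0.393). The A subgenome held 32.6% with both treatments.

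DEGs were found on each subgenome. The A subgenome had 9 higher and 9 lower among 19564 genes tested (0.0920%), the B subgenome 11 and 9 among 18879 (0.106%) and the D subgenome 12 and 10 among 19214 (0.115%). The other 2 DEGs, both higher, were among the 777 tested genes whose identifier names no chromosome. By homoeologous group of chromosomes, the share of DEGs ran from 4 of 6887 genes (0.0581%) in group 6 to 11 of 7496 (0.147%) in group 1. The 4 DEGs of group 6 were all higher with GA3, and of the 8 DEGs among 8270 genes (0.0967%) in group 7, 1 was higher and 7 were lower. The number in an identifier does not pair homoeologues, so agreement between copies was examined for *RHT1* and *IDD5* only.

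Treatment lay along the first of several axes of difference between the 8 libraries. In a principal component analysis of the log2 values, the first component held 21.0% of the variance, with water-treated libraries from -41.4 to -12.7 and GA-treated libraries from 13.4 to 47.8. The second component held 16.3% and placed replicates 1 and 2 of both treatments above zero and replicates 3 and 4 below it. The third held 15.0% and did not separate the treatments. On it the GA-treated libraries ran from -29.1 to 52.7 and the water-treated ones from -24.1 to 19.5. Correlations across genes between libraries were close throughout, with a median of 0.975 among GA-treated, 0.973 among water-treated and 0.970 between treatments. GA-treated replicate 4 had 11 genes at least 4-fold above all other libraries, and the others had at most 1 each. Genes at least 4-fold below all other libraries numbered from 4 in GA-treated replicate 1 to 13 in water-treated replicate 1 and in GA-treated replicate 2.

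**Figure D5:**
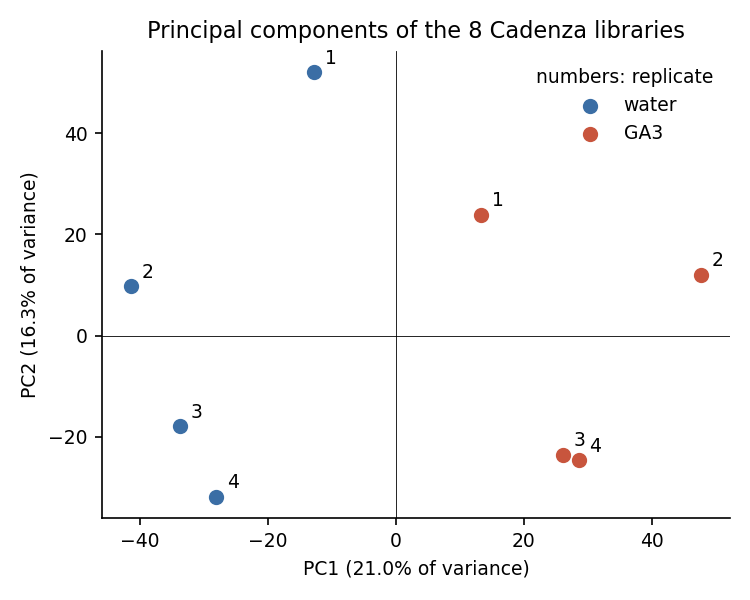
The 4 water-treated (blue) and 4 GA-treated (red) Cadenza libraries on the first (x axis, 21.0% of the variance) and second (y axis, 16.3%) principal components of log2(TPM + 0.5), numbered by replicate. The treatments separate along the first component, and replicates 1 and 2 lie above replicates 3 and 4 along the second.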

How the data were processed

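Total RNA of leaf sheaths was sequenced as paired-end reads. The authors trimmed the reads with Trimmomatic (version 0.39), quantified them with kallisto against annotated wheat gene models and deposited TPM per gene, with 1 column for each of 24 libraries. The methods and the series text name different annotation releases, so identifiers are printed as deposited and no coordinates are given. Of the identifiers, 0 matched the RefSeq gene table, so lists of annotated genes were not used.

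From the deposited TPM, log2(TPM + 0.5) was fitted in R (version 4.3.3) by limma (version 3.58.1) to 6 group means. Its empirical Bayes step allowed for a trend of variance with mean, and p-values were adjusted by Benjamini-Hochberg. Fold changes on this scale understate the change of low genes. The fit was tested on simulated data. Exact two-sided permutation tests of single values ran over 70 divisions in Python (version 3.11.15) with numpy (version 2.4.6) and pandas (version 2.3.3). Depth is unknown, so precision rests on the 4 replicates. Named by rule were the *RHT1* and *IDD5* copies and the 2 largest rises and falls among DEGs of at least 1 TPM whose groups did not overlap. Members and lists were chosen with earlier results of these data known. Alternatives covered filters, pseudocounts of 0.1 and 1, scaling, libraries in the fit, the trend, the threshold, a replicate block and each library left out. With Dixon's test, 58 groups of 4 libraries were checked for an outlying library, and 0 were flagged.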

Additional observations from a re-analysis of the deposited data

How the results depend on the processing

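The number of DEGs depended on the libraries in the fit, the mean-variance trend and the threshold. Of 62 genes (34 higher, 28 lower), 11 were called with only the 8 Cadenza libraries (5 higher, 6 lower), 34 without the *idd5* libraries (17 and 17), 31 without the mean-variance trend (15 and 16) and 244 at an adjusted p of 0.05 (126 and 118). With the replicate block 23 were called (9 and 14), of which 21 were among the 62. The block left the adjusted p of *RHT-D1*, TraesCS1D02G173200, TraesCS1B02G225800 and TraesCS5D02G414300 at 0.0445, 0.0239, 0.0262 and 0.0594, above the threshold. Same-numbered libraries had correlations of their deviations between -0.0379 and 0.0649, not each the highest for its library, so the numbers were not taken as pairs. Leaving out each library in turn gave 28 to 42 genes, with 13 to 27 higher and 10 to 21 lower. The count was lowest without GA3 replicate 4, and only without GA3 replicate 2 did it stay within 1.5 times of 62. Median-ratio scaling gave 56 higher and 25 lower genes, and non-overlapping higher genes then numbered 467 from 1 to 5 TPM, 723 from 5 to 20 TPM, 699 from 20 to 100 TPM and 2286 in all. Filters and pseudocounts gave between 53 and 67 genes. The tested genes hold 0 low-confidence models, so that alternative changed nothing. The log2 difference of *IDD5-A1* turned to 0.0159 without GA3 replicate 2, in a range from -0.108 to 0.0159 over the libraries left out. That of *IDD5-B1* turned to 0.0135 with median-ratio scaling and to 0.0381 without water replicate 4, in a range from -0.0649 to 0.0381. The difference in the share of genes under 1 TPM was -0.0263 percentage points, and -0.0498 over all gene models. With a library left out, the differences in the *IDD5-A1* share ranged from -0.757 to 1.08 points and in the *IDD5-B1* share from -0.150 to 2.31 points. Those of subgenome A (-0.0394 to 0.0360) and of genes with no chromosome (-0.0354 to 0.0324) also changed sign. At 2 TPM the pair of genes with the largest rises was not tested. The cause of these changes was not tested, beyond the fewer libraries in the fits named. All called genes that the rule named kept their direction, and in 33 of their fits over the alternatives the call was lost. TPM keeps no depth, and the limits set by sequencing depth are unknown.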

Other observations

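Within replicate numbers, which the labels do not say mark a shared batch, 8 of 11 measures of library composition differed between GA-treated and water-treated libraries in the same direction 4 times of 4. The other 3, the shares of subgenome A, subgenome B and genes with no chromosome, were higher 2 times and lower 2 times. The share of TPM in genes of 100 TPM and over was higher in the GA-treated library by 0.689, 0.658, 0.669 and 1.06 percentage points for numbers 1 to 4. The share in genes of 5 to 20 TPM was lower in each GA-treated library, with differences from -0.647 to -0.482 points. The share in the 100 most abundant genes was lower too, with differences from -0.401 to -0.154 points. The number of genes with at least 0.5 TPM was lower in the GA-treated library of each number, with differences of -283, -613, -381 and -717 genes. The share of the D subgenome was higher in each, by 0.0762 to 0.135 points. The 11 measures are not separate, because the class shares and the subgenome shares are parts of one TPM total. The 8 of 11 is therefore not a count of independent results. These differences were noticed after the values were seen and have no test.

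The *RHT1* sum and the *RHT-D1* share of it were higher in every GA-treated than in every water-treated library. Any pairing of libraries would therefore show them higher, so the replicate numbers add nothing for these measures. The *RHT-B1* share, whose groups overlapped, was lower in the GA-treated library of each number. The differences in the *RHT-D1* share were 0.705, 2.46, 2.31 and 0.699 percentage points.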
